A study of Rattus norvegicus with 6 samples.

Results

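The genes described here build the contacts by which neighbouring cells hold on to each other and exchange signals: N-cadherin (Cdh2), 2 other cadherins (Cdh11 and Cdh13), 3 adhesion proteins of the immunoglobulin family (Cadm1, Ncam1 and Alcam), the gap junction protein connexin Cx43 (Gja1), and the catenins that tie cadherins to the cell skeleton (Ctnnb1 and Jup). They are 9 of the 10412 genes named on the array, read by 19 of the 15923 probe sets on the array, and every probe set that the platform annotation assigns to 1 of these symbols was taken. The 9 genes were chosen from a table of blood and marrow differences in these same 6 arrays, so their differences are given as a description, with no test of the genes themselves.

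Stromal cells were grown from 3 rats carrying a GFP transgene, labelled S4, S5 and S6. Each rat gave 1 culture from peripheral blood and 1 from bone marrow, both started from mononuclear cells, grown under shared conditions until RNA was taken at passage 2, and each culture was hybridised to 1 Affymetrix RAE230A array. There were thus 3 blood and 3 marrow cultures, paired by rat, and all 6 carried the transgene. For the rats' strain and age and the promoter that drives GFP, nothing is given in the sources used here. With 1 culture per rat and tissue, p-values measure only the spread between these cultures.

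Cadherins are membrane proteins that bind their own kind on the next cell when calcium is present. Inside the cell their tails hold beta-catenin or plakoglobin, which pass the pull on to actin through alpha-catenin, and beta-catenin that is free of cadherin can act as a transcription cofactor in Wnt signalling. N-cadherin is the usual classical cadherin of mesenchymal cells, muscle and nerve cells, and cadherin-11 is common in bone-forming and connective tissue cells. Connexin Cx43 forms channels that let small molecules pass between stromal cells and osteoblasts.

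Values are log2 signals, 1 per probe set and array, and differences are blood minus marrow within a rat, in log2 units. Array medians lay between 8.12 and 8.22, and the median of all values was 8.18. A probe set was tested where it lay above that median on at least 3 of the 6 arrays. All 13 stromal genes used to check the cultures (such as Col1a1, Vim and Fn1) were bright enough to be tested, with a summed log2 signal of 15.49 to 15.80 on the 6 arrays. That sum mainly reflects the brightest of them. Their differences went both ways, with 7 of the 13 above 0. Pdgfra and Lum each differed by -1.93, Dcn by -1.38 and Pdgfrb by -0.38, while Eng differed by 1.62. Pdgfra read 8.91, 10.84 and 9.65 in blood cultures, against 11.90, 11.94 and 11.35 in those from marrow. Of the defining genes of endothelial cells, Pecam1, Kdr, Vwf and Tie1 were under the level for testing, and so were the epithelial genes Cdh1, Epcam and Krt8. Genes of mesothelium went opposite ways: Msln, mesothelin, was lower in blood cultures (8.23 to 9.08 against 9.45 to 10.29), while Wt1, a transcription factor gene, was higher (8.72 to 9.38 against 5.07 to 5.37 on one probe set, 7.26 to 7.45 against 6.82 to 7.02 on another). Macrophage genes were present in both kinds of culture, with a summed signal of 13.12 to 13.71 in blood and 12.67 to 13.76 in marrow cultures, and 7 of 11 of them passed the filter on signal. Of 7 general leukocyte genes 4 passed it, with a summed signal of 11.86 to 12.18 in blood and 11.29 to 11.87 in marrow cultures. Their part in the results was not tested. In such mixed RNA, fewer cells of a type and less RNA per cell cannot be told apart. Levels of different probe sets are not compared with each other, because each has its own response.

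N-cadherin had one of the widest gaps between the 2 kinds of culture. Its brightest probe set (1387259_at) read 11.74, 10.89 and 11.49 in the blood cultures of rats S4, S5 and S6, and 4.90, 6.40 and 6.09 in the marrow cultures of the same rats. The lowest blood value thus lay more than 4 log2 units above the highest marrow value. The difference was 5.58 ± 0.42 (SE, n = 3 rats), the fifth largest of all 8135 tested probe sets. A second probe set for Cdh2 (1368642_at), listed with the same source transcript, read 10.94, 9.82 and 10.64 in blood cultures, against 2.87, 4.35 and 3.37 in those from marrow. Its difference of 6.94 ± 0.47 ranked 2 from the top. In both probe sets rat S4 had the widest gap, at 6.84 and 8.07, and rat S5 the narrowest, at 4.49 and 5.47.

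All marrow readings of Cdh2 were well under the median of all values, where the background of these arrays is not known. The fold of 47.7 on the brighter probe set is therefore approximate. With a pseudocount of 32 added to the unlogged signals the difference was 4.90, and with one 4 times as large it was 3.89.

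Cadm1, a nectin-like protein that joins cells without calcium, showed the same pattern. Its brightest probe set (1384132_at) read 10.85, 9.43 and 10.96 in blood cultures and 6.04, 6.33 and 6.77 in marrow cultures, a difference of 4.03 ± 0.32 that ranked 9 from the top. The other probe set (1376657_at) read 10.12, 9.11 and 10.37 in blood cultures, against 4.10, 2.94 and 5.28 in those from marrow, a difference of 5.76 ± 0.23. As for Cdh2, the groups did not overlap on either probe set and every marrow value lay under the median. With the larger of these pseudocounts its difference on the brighter probe set was 2.83.

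**Figure D1:**
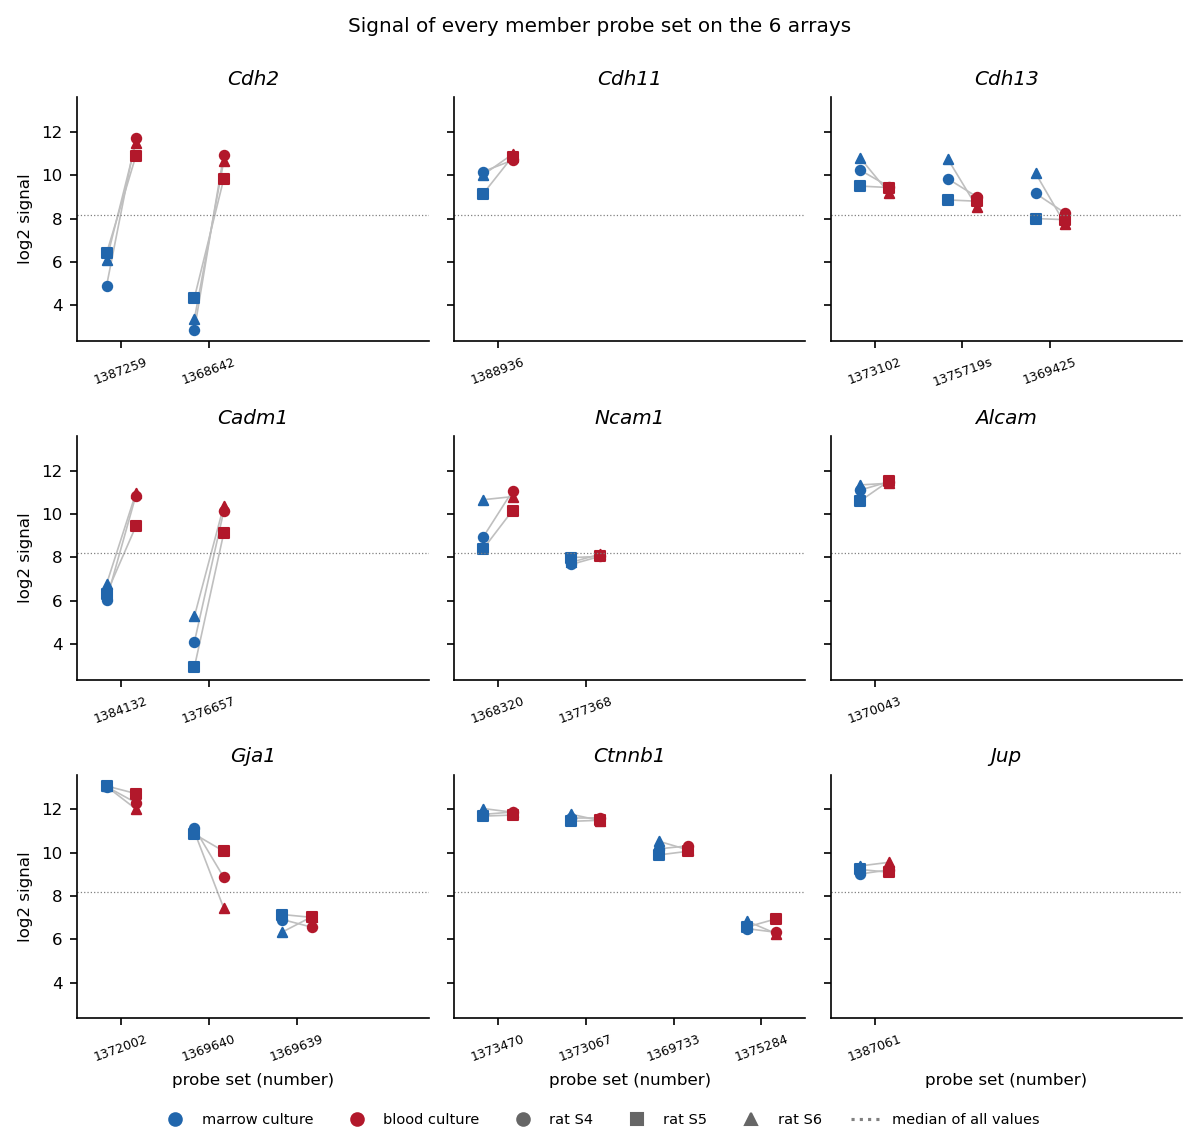
Log2 signal of the 19 probe sets, with marrow cultures in blue and blood cultures in red, 1 symbol per rat, grey lines joining the 2 cultures of a rat and a dotted line at the median of all values (8.18). Both probe sets of Cdh2 and both of Cadm1 climb from below the dotted line in marrow to above it in blood cultures, and those of Ctnnb1 and Jup stay level.

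Across the whole table, a paired limma fit placed 80 of 8135 probe sets (0.983%) higher and 95 (1.17%) lower in blood cultures at an adjusted p under 0.05. Of the 19 probe sets described here, 16 passed the filter on signal. Of these 16, the 2 of Cdh2 and the 2 of Cadm1 were among those higher, none was among those lower, and 12 did not pass. These 4 passed the filter through their blood values alone, so a difference was built into their being tested, and nothing is read from their share because this contrast chose the genes. Without rat S4 limma passed none of the 16 (5 had an unadjusted p under 0.05) and 0 of the whole table (770 had an unadjusted p under 0.05). Without rat S6 the dimmer probe sets of Cdh2 and Cadm1 passed, and 44 of 8135 over the whole table. Without rat S5 all 4 passed, together with the 3 of Cdh13 and 2 of Gja1, which were lower. The difference of the brightest Cdh2 probe set was 4.95 without rat S4, 6.12 without rat S5 and 5.67 without rat S6.

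**Figure D2:**
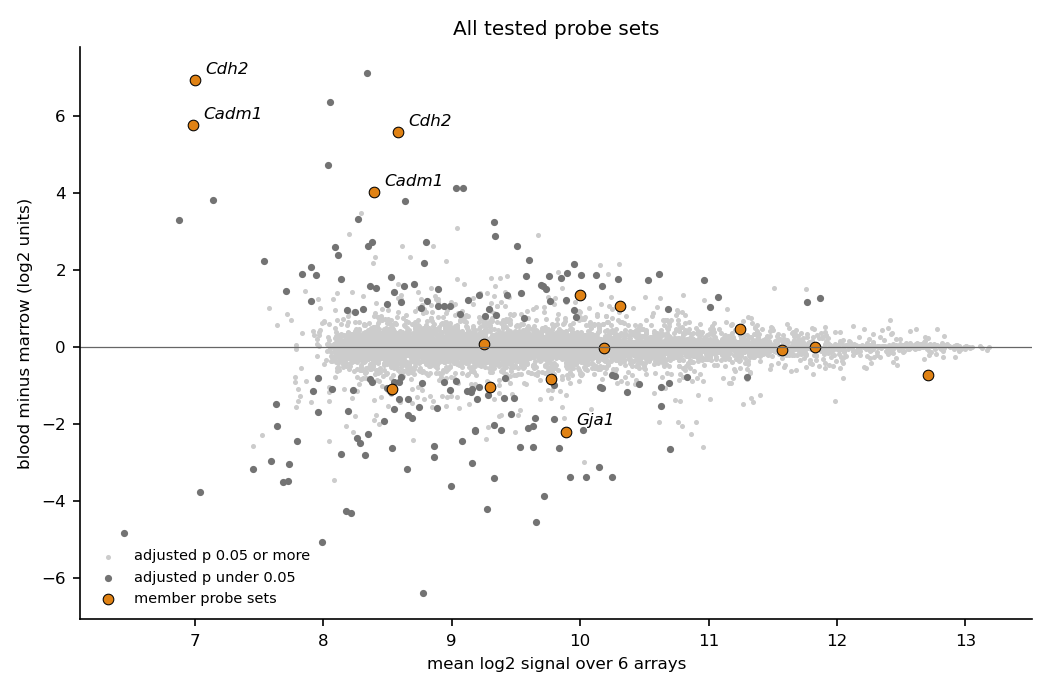
Blood minus marrow difference (vertical axis, log2 units) against the mean log2 signal over 6 arrays (horizontal axis) for the 8135 tested probe sets. Dark points had an adjusted p under 0.05 in limma, and orange points are the 16 tested probe sets of the adhesion genes. The 4 orange points of Cdh2 and Cadm1 lie at the upper edge, with differences of 4.03 to 6.94, and the others lie between -2.19 and 1.34.

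The other cadherins had smaller differences, and not in 1 direction. Cdh11, cadherin-11, was bright in every culture. The blood cultures read 10.69, 10.86 and 10.97 and the marrow cultures 10.17, 9.15 and 10.02. Blood was above marrow in each rat, by 0.52, 1.71 and 0.95, with a mean of 1.06 ± 0.24, or 2.08-fold. The blood values lay within a narrow range (SD 0.14) and above every marrow value, while the marrow values were spread wider (SD 0.55). Cdh11 has 1 probe set, and it did not pass the threshold.

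Cdh13, or T-cadherin, lacks the tail that binds catenins and is held in the membrane by a lipid anchor. All 3 of its probe sets lay on the side of marrow. The brightest (1373102_at) read 9.47, 9.43 and 9.17 in blood cultures, against 10.24, 9.50 and 10.81 in those from marrow, a difference of -0.83 ± 0.29. The others differed by -1.04 ± 0.40 and -1.09 ± 0.41. The gap was carried by rats S4 and S6, at -0.77 and -1.64 on the brightest probe set, while rat S5 had almost none, at -0.07. The centred profiles of the 3 probe sets were close to each other, with root mean square distances of 0.08 to 0.27 log2 units.

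In the marrow cultures, all probe sets of Cdh13 were highest in rat S6, and so was the brighter one of Ncam1. The dimmer Ncam1 probe set was highest in rat S5 (7.99, against 7.67 and 7.77). S100b, a calcium-binding protein of glia and some other cells, was also highest in the marrow culture of rat S6. It read 10.93 there and 7.84 to 9.19 in the other 5 cultures. Most other neural and glial genes did not share this. Of the remaining 8, Gfap, Nefl, Sox10, L1cam and Gap43 were each lowest there among the marrow cultures. Nefm and Map2 lay between the other marrow cultures, and Tubb3 was highest there, at 8.67 against 8.46 and 8.58. Without S100b the summed signal of the 8 was 10.35 in that culture, the lowest of the 3 marrow cultures (10.37 and 10.51 in the others). With S100b the sum was 11.67, against 10.63 to 10.88. The summed signal of 9 muscle genes was 11.64 and 11.69 in the marrow cultures of rats S5 and S6 and 10.60 to 10.82 in the other 4. Myod1, which drives skeletal muscle fate, read 9.09 and 10.17 in those cultures and 5.81 or less in the rest. Without Myod1 and the muscle actin gene Acta1, the sum of the 7 others was 11.03 and 10.87 there and 10.54 to 10.68 in the rest. Only 3 of the 9 muscle and 3 of the 9 neural genes passed the filter. The part of S100b-bearing or muscle cells in the values of Cdh13 and Ncam1 was not tested.

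Ncam1, the neural cell adhesion molecule that is also found on muscle and some stromal cells, was measured on its brighter probe set (1368320_at) at 11.06, 10.16 and 10.80 in the blood and at 8.94, 8.39 and 10.66 in the marrow cultures. The gap was 2.12 in rat S4, 1.77 in rat S5 and only 0.14 in rat S6. The groups overlapped, and the mean of 1.34 ± 0.38 did not pass the threshold. A dimmer probe set (1377368_at), under the filter, read 8.04 to 8.15 in blood and 7.67 to 7.99 in marrow cultures, a difference of 0.27 ± 0.14.

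Alcam, also called CD166 and often used to recognise stromal cells, was near 11 in all cultures. It read 11.49, 11.53 and 11.42 in blood cultures, against 11.10, 10.59 and 11.34 in those from marrow. Blood was above marrow by 0.39, 0.94 and 0.08, a mean of 0.47 ± 0.19, and did not pass the threshold. The 3 blood values had an SD of 0.06, against 0.38 in marrow cultures.

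**Figure D3:**
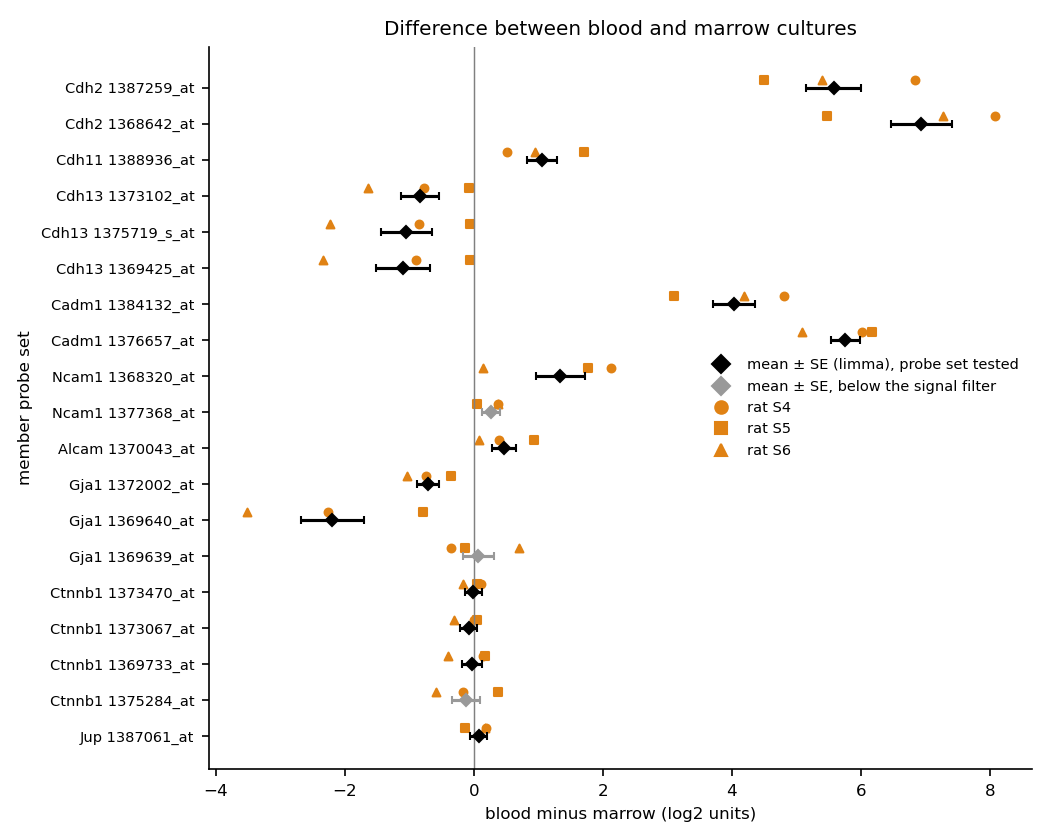
Blood minus marrow difference in log2 units for each of the 19 probe sets, with the mean and its SE from limma as diamonds (grey where the probe set lay under the filter on signal) and the 3 rats as orange symbols. Cdh2 and Cadm1 lie at 4.03 or more, Cdh11, Ncam1 and Alcam at 1.34 or less, Cdh13 and 2 probe sets of Gja1 below 0, and Ctnnb1 and Jup close to 0.

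Connexin Cx43 went the other way from N-cadherin. The brightest Gja1 probe set (1372002_at) read 13.05, 13.08 and 13.06 in marrow cultures and 12.31, 12.73 and 12.02 in blood cultures. The highest value of any probe set on the 6 arrays was 13.31. Blood was lower in each rat, with a mean difference of -0.71 ± 0.17. A less bright probe set (1369640_at) read 11.13, 10.86 and 10.97 in marrow cultures and 8.87, 10.07 and 7.45 in blood cultures, a difference of -2.19 ± 0.49, or 4.56-fold. Whether signals so near that highest value are compressed was not tested, so the small spread (SD 0.02) and the difference of the brightest probe set may be too small. On the second, below that range, the marrow values had an SD of 0.14, while the blood values ranged over more than 2 units. Rat S5 had the smallest gap on both. A further probe set (1369639_at) was dim, at 6.34 to 7.15, and differed by 0.07 ± 0.24. Neither bright probe set passed the threshold with all 3 rats. Both did without rat S5, when the count over the whole table rose from 175 to 406.

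Of the 9 genes, 4 have an entry in the RefSeq promoter table used here (assembly GRCr8): Alcam, Gja1, Ctnnb1 and Jup. Cdh2, Cdh11, Cdh13, Cadm1 and Ncam1 have none there. The stretch before and at the start of Gja1 is shown because Gja1 is the gene of these 4 with the widest difference. It covers 250 bases before and 50 after the annotated start, at chr20:36302314-36302613 on the plus strand, and has a GC content of 50.3%. Capitals mark the letters TGAGTCA, the consensus of AP-1, the Fos and Jun factors.

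Gja1: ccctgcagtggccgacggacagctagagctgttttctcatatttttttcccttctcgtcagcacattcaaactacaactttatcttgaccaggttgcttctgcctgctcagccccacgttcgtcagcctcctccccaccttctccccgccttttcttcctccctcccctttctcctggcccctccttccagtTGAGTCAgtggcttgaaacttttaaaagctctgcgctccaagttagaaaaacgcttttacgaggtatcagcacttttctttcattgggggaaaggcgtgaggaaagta

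This run lies at bases 193 to 199 of the window, 58 bases before the start. Searched on both strands, TGAGTCA occurs in 4.63% of 33469 promoter windows of the same length, and in none of the other 3 of these genes. CAGGTG, a core bound by Snail and ZEB repressors, occurs in 18.8% of all windows and, of the 4, in that of Jup. GGGCGG, the GC box, occurs in 33.1% and likewise in that of Jup, at 2 places, and TATAAA occurs in 14.2% and in none of the 4. The motifs do not share letters where they were found, and a match of letters is not a measured binding site.

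For the catenins these arrays resolved no difference between the 2 kinds of culture. The brightest probe set of Ctnnb1, which encodes beta-catenin, read 11.88, 11.74 and 11.87 in blood cultures, against 11.77, 11.69 and 12.04 in those from marrow. The mean difference was -0.00333 ± 0.12, with a 95% interval of -0.31 to 0.31, so a difference of that size in either direction is not shut out. The other tested probe sets differed by -0.08 ± 0.13 and -0.03 ± 0.16, and a dim one by -0.12 ± 0.22. The sign of the first is not firm: it turned to 0.08 without rat S6 and to 0.009 after quantile normalization. Jup, plakoglobin, which takes the place of beta-catenin in desmosomes, read 9.21, 9.10 and 9.56 in blood cultures, against 9.02, 9.23 and 9.39 in those from marrow, a difference of 0.08 ± 0.13 (95% interval -0.25 to 0.40).

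Of the 16 tested probe sets, 9 had blood and marrow values that did not overlap, against 18.4% of the 8113 tested probe sets with no empty cell. The sign of the difference was the same in all 3 rats for 12 of the 16. Among the 9, blood was above marrow in 6 (Cdh2, Cadm1, Cdh11 and Alcam) and below in 3 (the brightest of Cdh13 and both of Gja1). Nothing is read from either count, of values without overlap or of shared signs, because this contrast chose the genes.

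On many probe sets, though not all, the blood culture of rat S5 lay closest to its marrow partner. Its value was the lowest of the 3 blood cultures on all 4 probe sets of Cdh2 and Cadm1 and the highest on both bright probe sets of Gja1. Rat S5 had instead the widest gap of the 3 for Cdh11, Alcam and the dimmer probe set of Cadm1 (1.71, 0.94 and 6.17). Across the table, of 80 probe sets called higher in blood, the S5 blood culture was the lowest in 59 (73.8%), against 56.1% of all 8113 tested probe sets with no empty cell. Of 95 called lower, it was the highest in 49 (51.6%), against 24.5% of all. The root mean square difference between the blood and marrow arrays was 0.53 in rat S5, 0.66 in rat S4 and 0.57 in rat S6. Of the stromal genes, 2 picked out after their values were seen set that culture apart: Lum, or lumican, read 8.11, 11.92 and 9.79 and Dcn, or decorin, 10.55, 12.89 and 10.44 in the blood cultures of rats S4, S5 and S6. Pdgfra and Thy1 were also highest there among the blood cultures, at 10.84 (8.91 and 9.65 in the others) and 9.42 (7.02 and 7.41). For Thy1 the marrow culture of rat S5 departed too, at 7.68 against 9.38 and 9.84. In marrow cultures Lum was at 11.72 to 12.01 and Dcn at 12.57 to 12.83, so the S5 blood culture was like marrow in both. Other matrix genes did not: Col1a1 read 13.02, 12.99 and 13.02 in the blood cultures, and for Col1a1 and Col1a2 rat S5 had the widest gap from marrow, at 0.67 and 0.63.

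**Figure D4:**
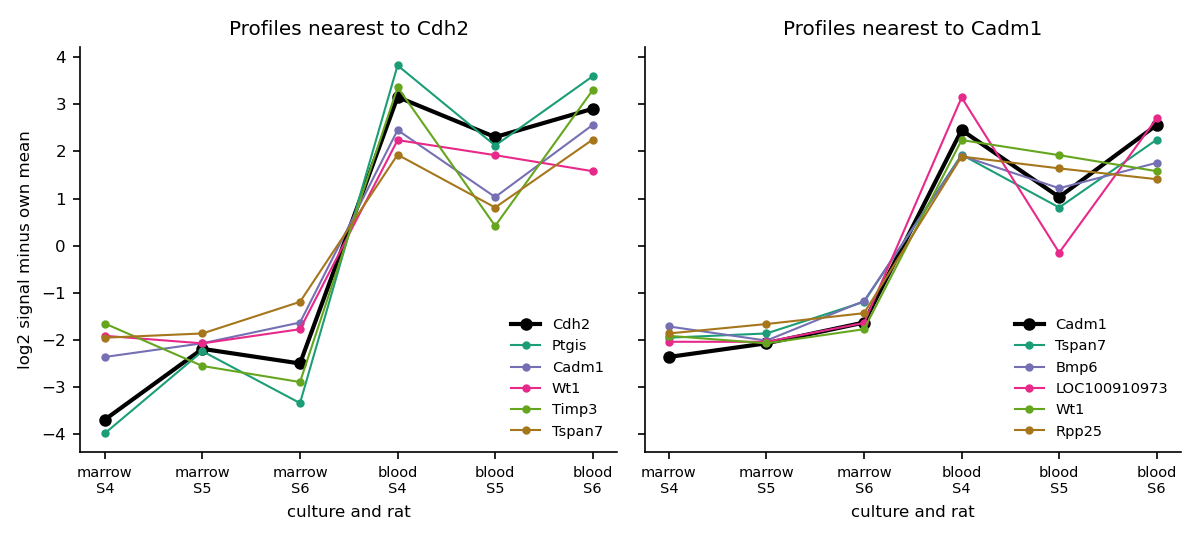
Log2 signal minus the probe set's own mean (vertical axis) on the 6 arrays (horizontal axis) for the brightest probe sets of Cdh2 (left) and Cadm1 (right, black lines) and the 5 genes with the nearest profiles (coloured). All lines step up from marrow to blood, and in most the blood culture of rat S5 is the lowest of the 3.

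Of 6096 other genes, the one whose centred profile lay nearest to that of Cdh2 over the 6 arrays was Ptgis, prostacyclin synthase, at a root mean square distance of 0.54 log2 units. Ptgis read 11.88, 10.18 and 11.65 in blood cultures, against 4.08, 5.82 and 4.72 in those from marrow. Next came Cadm1 itself at 0.89, Wt1 at 1.04, Timp3, an inhibitor of metalloproteinases, at 1.17 and the tetraspanin Tspan7 at 1.22. Cadm1 was matched more closely, by Tspan7 at 0.37, Bmp6 at 0.52, LOC100910973 at 0.58, Wt1 at 0.58 and Rpp25 at 0.64. Tspan7 read 10.20, 9.08 and 10.52 in blood cultures, against 6.32, 6.41 and 7.08 in those from marrow, so it too was lowest in the S5 blood culture. For scale, the 2 probe sets of Cdh2 lay 0.72 apart and those of Cadm1 1.04. The distance mainly reflects the size of the step between marrow and blood, which these genes were partly chosen on.

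The rest of the adhesion machinery was read from 9 lists chosen by function, holding 149 genes, of which 108 are on the array and 58 were bright enough to be tested. None was higher in blood cultures at an adjusted p under 0.05 in limma over all probe sets, 2 were lower and 56 did not pass, each gene by its brightest tested probe set. Over all 71 tested probe sets of these genes a further gene, Ptprf, had a probe set past the threshold, lower in blood cultures, which makes 3 genes. Of all 8135 tested probe sets, 0.983% were higher and 1.17% lower. An unadjusted p under 0.05 in limma was found for 16 of the 58 (27.6%), beside 13.7% of all genes. Nothing is read from this share, because the lists were chosen with earlier results of these data known. Over all 6110 genes, each by its brightest tested probe set, 0.867% were higher and 1.16% lower. The median difference over the 58 genes was 0.01, beside -0.01 over all genes.

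Gja5, connexin Cx40, a channel protein of arterial endothelium and atrial muscle, was one of the 2. It read 7.76, 6.97 and 8.86 in blood cultures, against 10.93, 9.35 and 10.63 in those from marrow. The groups did not overlap, and the difference of -2.44 ± 0.27 had an adjusted p of 0.0158 in limma. On a dimmer probe set the difference was -0.56 ± 0.16. The adjusted p was 0.123 without the rat in the fit, 0.0508 with arrays scaled to a common trimmed mean, 0.053 after quantile normalization, 0.0639 without a filter, 0.0772 with the fluidics station in place of the rat and 0.234 without rat S4. Under the 6 remaining settings it lay between 0.0074 and 0.0437. Of the 7 endothelial genes on the array, 1 passed the filter: Eng, endoglin, also a stromal gene, which was higher in blood cultures, at 10.27 to 10.72 against 8.25 to 9.25. Pecam1, a defining endothelial gene, read 3.14 to 5.32 over all 6 arrays. The 3 other tested connexins (Gjd2, Gja4 and Gjb1) differed by -0.02 to 0.10.

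Snai1, the zinc-finger repressor Snail, best known for silencing E-cadherin, was the other. It read 9.62, 10.31 and 9.42 in the blood cultures, each below its marrow partner at 11.25, 11.18 and 10.43, and only the lowest marrow value came near the blood values. Snai1 fell by a mean of 1.17 (SE 0.18), with an adjusted p of 0.0438 in limma. The adjusted p was 0.155 without the rat in the fit, 0.105 with scaled arrays, 0.119 after quantile normalization, 0.125 without a filter, 0.0557 with the fluidics station in place of the rat, and 0.286 and 0.215 without rats S4 and S6. With both pseudocounts, a stricter filter, an intensity trend and without rat S5 it lay between 0.0172 and 0.0380 in limma. Of the 4 tested regulators of this list, Zeb1 differed by -0.26 ± 0.12 and Prrx1 by -0.25 ± 0.23. Cdh1, E-cadherin, lay under the level for testing in every culture, with blood values of 5.68 to 6.49 and marrow values of 5.64 to 6.63.

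Among catenin-related genes and actin linkers, none of 11 tested genes passed. Actn1, an alpha-actinin, read 12.04, 11.66 and 12.05 in blood cultures, against 11.31, 11.41 and 11.20 in those from marrow (0.61 ± 0.16, adjusted p = 0.161 in limma), and its second probe set differed by 0.82. Vcl, vinculin, was on the marrow side on both probe sets, by -0.44 ± 0.12 and -0.27. Ctnnbip1, an inhibitor of beta-catenin, differed by 0.43 ± 0.13. Of 8 tested genes that control beta-catenin or act with it, none passed, and those with the smallest p were Tcf7l2, a partner of beta-catenin on DNA, at -0.64 ± 0.19, Pygo2 at -0.26 ± 0.12 and the kinase gene Csnk1a1 at 0.24 ± 0.12.

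Only 3 other cadherin genes could be tested, out of 15 on the array. Dchs1, a large protocadherin, differed by -0.90 ± 0.20, Cdh3, P-cadherin, by 0.27 ± 0.14 and Fat1 by -0.16 ± 0.12. Of 9 tested genes of the immunoglobulin family, Nectin1 was on the marrow side by -0.64 ± 0.17 with no overlap, Pvr differed by -0.25 ± 0.17, and Thy1 by -1.02 ± 0.83 with rat S5 opposed to the others. The single tested desmosome gene, Pkp2, plakophilin-2, differed by 0.64 ± 0.25, and the 2 tested tight junction genes, Magi3 and Pard3, by 0.14 ± 0.12 and 0.03 ± 0.17.

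Enzymes and receptors that act on cadherins were tested for 16 genes, and none passed by its brightest probe set. Ptprm, a phosphatase that binds its own kind between cells, differed by 0.71 ± 0.18, Adam17, a protease that sheds membrane proteins, by -0.50 ± 0.13, and the phosphatase gene Ptprf by -0.63 ± 0.17. Adjusted p in limma were 0.152, 0.169 and 0.176. The dimmer Ptprf probe set read 8.57, 8.94 and 8.34 in blood cultures, against 9.88, 9.94 and 9.30 in those from marrow. These values did not overlap, and the difference of -1.09 ± 0.13 had an adjusted p of 0.0202 in limma, so the 2 probe sets of Ptprf shared the direction but not the call. Its adjusted p was 0.0886 without the rat in the fit, 0.0525 with scaled arrays, 0.0566 after quantile normalization, 0.0743 without a filter, and 0.246 and 0.130 without rats S4 and S6. With both pseudocounts, a stricter filter, an intensity trend, the station block and without rat S5 it lay between 0.0124 and 0.0231 in limma. Ezr, ezrin, which links membrane proteins to actin, had the widest positive difference of the 58 genes, 1.32, with an adjusted p of 0.260, and was picked out for that value.

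**Figure D5:**
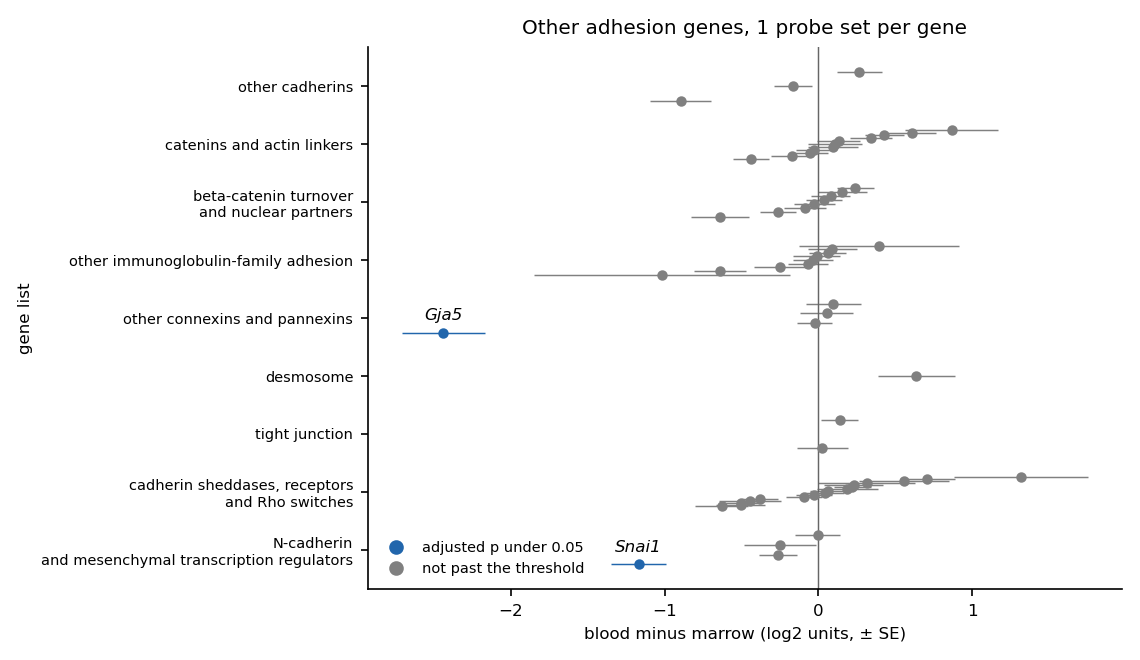
Blood minus marrow difference (horizontal axis, log2 units, with the SE from limma) for the 58 tested genes of 9 adhesion lists (vertical axis), 1 probe set per gene. Blue marks the 2 genes whose brightest tested probe set was past the threshold, Gja5 at -2.44 and Snai1 at -1.17, and the other 56 lie between -1.02 and 1.32.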

How the data were processed

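Signals of 6 arrays were read from the authors' deposited value table, in which each cell is the signal of a probe set on what was taken to be a log2 scale. The base is not stated and was inferred from the range of values (0 to 13.31), and folds depend on it. The submitters' processing notes name 1 tool, GCOS. How background was corrected and arrays were normalized is not given in the sources used here. Values were used as deposited (pseudocount 0), with 86 of 95538 cells empty. Per the file headers, the instrument settings placed rats S4 and S5 on fluidics station 1 and rat S6 on station 2. Blood arrays ran on modules 1 and 3 and were scanned just before the marrow array of their rat, and marrow arrays ran on modules 2 and 4, so module and group cannot be told apart.

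Of 15923 probe sets, 57 controls were removed and 8135 above the median of all values on at least 3 arrays were kept. Limma 3.58.1 (R 4.3.3, lmFit and eBayes, two-sided, Benjamini-Hochberg) was fitted to all of these with the rat as a fixed term, as the series' design text states pairing by animal. The fit was also run on data simulated under the same model, which cannot show whether that model holds for these arrays. Deviations of same-rat arrays correlated at -0.29, 0.30 and 0.33. Those of blood and marrow arrays from different rats correlated at -0.47 to 0.42, a range that holds all same-rat values. SE are limma's. Probe sets under the filter take theirs from a fit without it. A listed gene stands by its brightest tested probe set. Only the 12789 probe sets with 1 symbol were named.

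The member genes, lists and settings were chosen with earlier results of these data known. Named are all members, all listed genes past an adjusted p of 0.05, otherwise up to 3 per list with the smallest p, and the 5 nearest profiles to Cdh2 and to Cadm1; other genes were named after their values were seen. Cultures of 3 rats limit precision. Alternatives were the unpaired fit, other scaling, pseudocounts, filters, an intensity trend, leaving out each rat and, added after seeing the data, the fluidics station as a block. Figures used Python 3.11.15 and matplotlib 3.10.9.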

Additional observations from a re-analysis of the deposited data

How the results depend on the processing

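The count of 4 probe sets past the threshold (2 of Cdh2 and 2 of Cadm1, all higher in blood cultures) was the same in the unpaired fit without the replicate block, with scaled or quantile-normalized arrays, both pseudocounts, no filter, the stricter filter, an intensity trend and the station block. Leaving out 1 rat gave 0 to 9. The count over the whole table, 175, was 130 without the replicate block, 127 with the station block, 109 with scaled arrays, 107 after quantile normalization and 82 without a filter. It was 200 and 223 with the pseudocounts, 206 with an intensity trend and 239 with the stricter filter. With 1 rat left out it was 0 to 406. The 2 other adhesion genes past the threshold by their brightest probe set became 0 without the replicate block, with the station block, with scaled or quantile-normalized arrays and without a filter, and 0 to 6 with 1 rat left out. With 2 rats, 1 residual degree of freedom is left. The sign of the brightest Ctnnb1 probe set turned to 0.00896 after quantile normalization, and leaving out 1 rat gave -0.06 to 0.08. For Gja1, the dim probe set had the other sign, at 0.0733. The cause of these changes was not tested. Low marrow signals of Cdh2 and Cadm1 lie where background is unknown, which limits their folds.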
